A study of Homo sapiens with 4 samples.

Results

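The transcripts of 41 genes of glucose metabolism were followed in liver tumour cells in which the ubiquitin ligase COP1 was knocked down. The genes were taken from a fixed list of glucose transporters and of genes of glycolysis, gluconeogenesis, glycogen, fructose and the pentose phosphate pathway. No rule on their values set the list, but it was chosen with earlier results of these data known. All 41 were found among the 46427 gene numbers of the tables. Huh7 and HepG2 are established human cell lines labelled as hepatocellular carcinoma and as wild type in genotype. Each line received 20 nM of either an siRNA against COP1 (COP1-siRNA) or a control siRNA (NC-siRNA) during 5 h of transfection, cells were harvested 48 h later, and strand-specific libraries were made from polyadenylated RNA. There were 4 conditions with 1 library each, so a difference within a line has no replicate check, and each siRNA group rests on a single siRNA sequence in transiently transfected cells.

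Glycolysis splits glucose into pyruvate, which lactate dehydrogenase can turn into lactate, and gluconeogenesis runs most of the same steps backwards in the liver with separate enzymes at the irreversible ones. Several steps have paralogous enzymes that differ between tissues: adult hepatocytes use, among others, the liver pyruvate kinase encoded by PKLR and the transporter GLUT2 (SLC2A2), while tumour cells often use HK1, HK2, ALDOA, PKM and GLUT1 (SLC2A1). The hypoxia-inducible factor HIF1A, the glucose-responsive factor ChREBP (MLXIPL) and MYC are known activators of genes in this pathway. COP1 marks proteins for degradation, and the comparison with COP1-siRNA asks which of these transcripts differ when COP1 is lowered.

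Values are TPM, a level per transcript length that sums to 1000000 in each library. Differences are log2 of the ratio of TPM + 1, a scale that understates the change of genes with low TPM. A gene was tested in a comparison if it reached 1 TPM in at least 1 of its libraries. The tables hold no read counts, so the depth and the counting error of a value are unknown. The ratio of coverage to FPKM put the depth of the COP1-siRNA library at 1.14 times its control in Huh7 and 1.28 times in HepG2. COP1 itself was at 19.7 TPM in Huh7 with NC-siRNA, 6.18 with COP1-siRNA, 26.9 in HepG2 with NC-siRNA and 16.1 with COP1-siRNA. It was lower with COP1-siRNA in both lines, with 31.4% of its TPM left in Huh7 and 59.9% in HepG2. All 9 hepatocyte markers examined were detected in all libraries, but their summed TPM was 22965 and 21393 in the Huh7 libraries against 2896 and 3396 in those of HepG2, and 8 of the 9 were lower in both HepG2 libraries. With COP1-siRNA all 9 were higher in HepG2 (median log2 fold change 0.40, range 0.08 to 0.57) and 6 of the 9 lower in Huh7 (median −0.11), with 0 past 1.5-fold in either line. Of all tested genes, 5.48% in Huh7 and 4.43% in HepG2 passed 1.5-fold. Of the markers of other cell types, fibroblast markers summed to at most 122 TPM, nearly all of it LUM in Huh7, immune markers to at most 62.7 TPM, mainly CD68, and endothelial markers to at most 7.36 TPM. DCN, PTPRC, CD3E and MS4A1 were listed at 0 in all 4 libraries. The part that these markers play in the results was not tested.

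The members ranged from 0 to 6841 TPM. In all 4 libraries GAPDH, which makes 1,3-bisphosphoglycerate and for which the study lists qRT-PCR primers, was the highest member. Together the 41 genes held 1.78% of all TPM in Huh7 with NC-siRNA, 1.58% in Huh7 with COP1-siRNA, 1.70% in HepG2 with NC-siRNA and 1.64% in HepG2 with COP1-siRNA. Most of this came from the 10 genes of lower glycolysis and lactate, with 14654, 12842, 13541 and 13373 summed TPM in the same order. The share of the 41 genes was lower with COP1-siRNA in both lines. In HepG2 their summed TPM went from 16989 to 16428, and ALDOA alone went from 1672 to 1282. LOC112694756, which overlaps ALDOA on the same strand, went from 61.2 to 312 TPM there. How reads were divided between these loci is unknown. At the other end, PCK1, FBP1 and GYS2 stayed under 1 TPM in all 4 libraries, so 38 members could be fitted across the libraries and 3 could not.

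**Figure D1:**
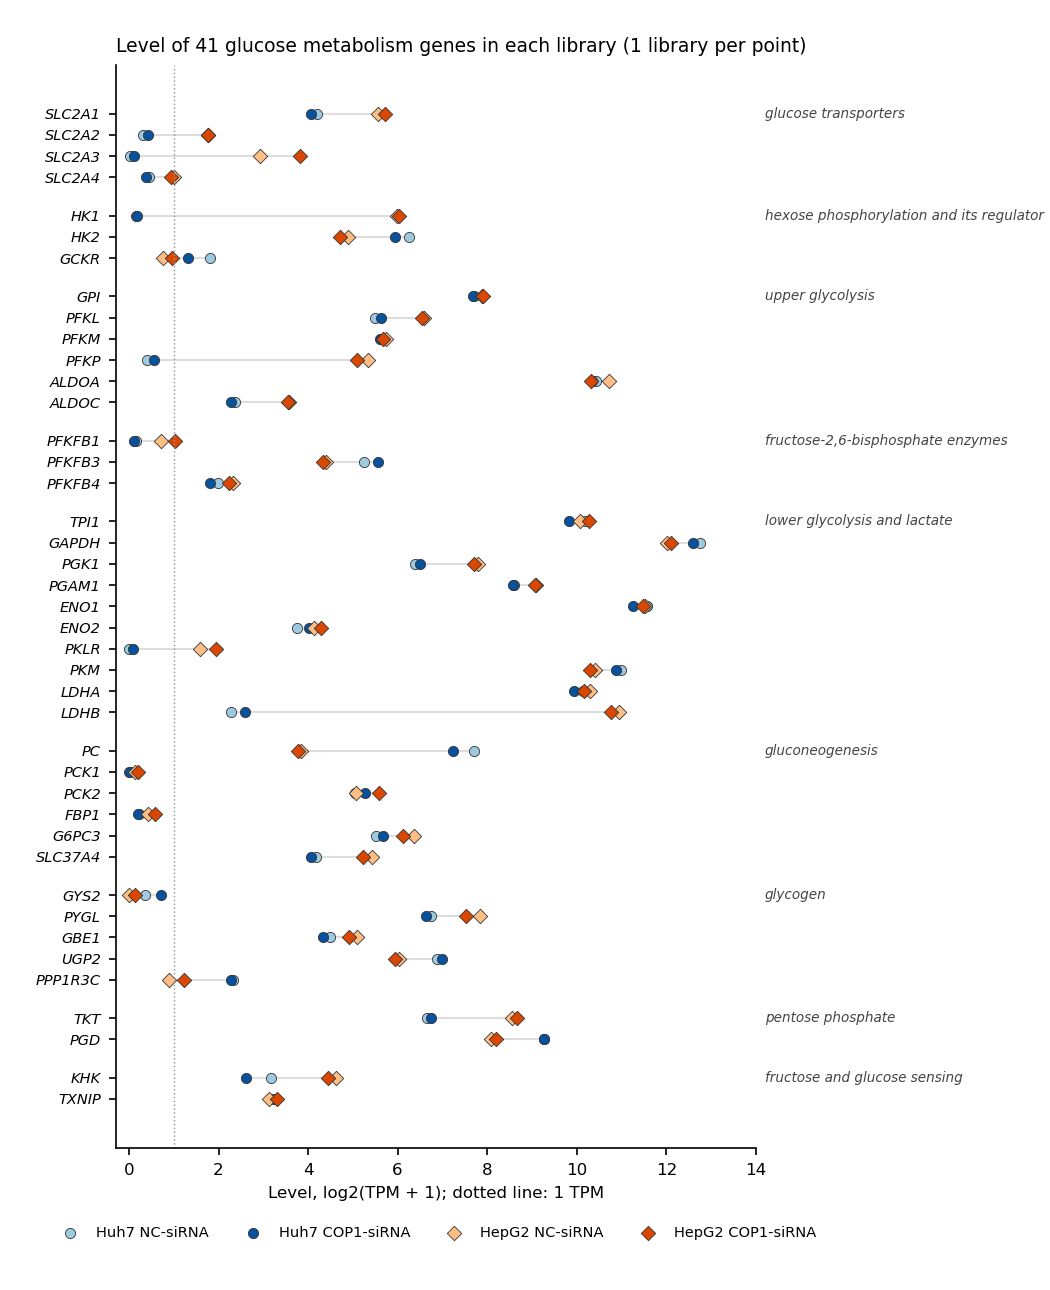
Level of each of the 41 members as log2(TPM + 1), 1 point per library, in rows ordered by role, with circles for Huh7 and diamonds for HepG2 (pale, NC-siRNA; dark, COP1-siRNA). The 2 points of a line lie close together in nearly every row, while LDHB, HK1, PFKP, SLC2A3 and PC have wide gaps between the lines; PCK1, FBP1 and GYS2 lie left of the dotted line at 1 TPM throughout.

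No member passed 2-fold with COP1-siRNA in either line. Of the 31 members tested in Huh7, 20 were lower and 11 higher with COP1-siRNA, with a median log2 fold change of −0.10 and a range from −0.56 to 0.31. The median of all 13000 genes tested there was −0.0008, and 1.08% of them passed 2-fold. Of the 37 members tested in HepG2, 22 were lower and 15 higher, with a median of −0.04 and a range from −0.38 to 0.88, beside a median of −0.008 for all 14456 genes, of which 0.934% passed 2-fold. At 1.5-fold, 0 members passed in Huh7 beside 5.48% of all genes, and 1 member, SLC2A3, passed in HepG2 beside 4.43% of all genes. With backgrounds near 1%, fewer than 1 member would be past 2-fold at the rate of all genes, so a count of 0 does not set the members apart.

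Among the 30 members tested in both lines, 14 were lower and 5 were higher with COP1-siRNA in both. The same sign in both lines was thus seen for 63.3% of the members and for 60.2% of the 11970 genes tested in both lines. In a fit of all 4 libraries with line and siRNA as terms (limma on log2(TPM + 1), 15486 genes, 1 residual degree of freedom), 0 of the 38 members and 0.0% of all genes had an adjusted p under 0.05 for the siRNA. The adjusted p of the members ran from 0.300 for PCK2 to 0.991 for SLC2A1 in this limma fit. COP1, the gene that was knocked down, was not called either (limma estimate −1.12 ± 0.20 SE, adjusted p = 0.184). A count of 0 calls therefore cannot show that the members were unchanged. At an unadjusted limma p under 0.05 there were 6 members (15.8%) and 1670 genes in all (10.8%). The 6, listed after their values were seen, were HK2, ALDOA, LDHA, PCK2, PYGL and KHK.

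**Figure D2:**
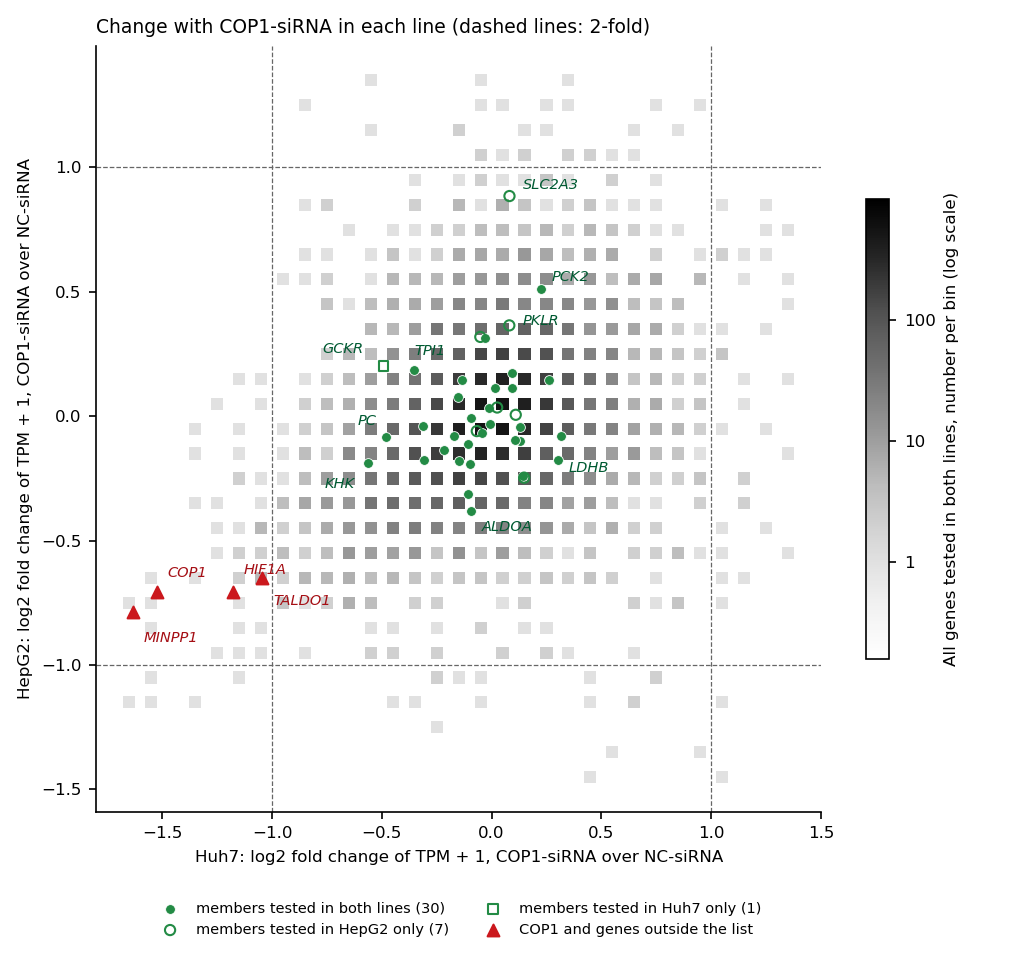
Log2 fold change of TPM + 1 with COP1-siRNA in Huh7 (x axis) against HepG2 (y axis); grey squares are bins of the 11970 genes tested in both lines (36 of them fall outside the axes), green marks are members and red triangles are COP1 and 3 genes outside the list. All members lie inside the dashed 2-fold lines, with SLC2A3 nearest to one of them at 0.88 in HepG2, while MINPP1, COP1, HIF1A and TALDO1 lie beyond −1 on the Huh7 axis and between −0.79 and −0.65 on the HepG2 axis.

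Glucose transporters carry glucose across the plasma membrane. GLUT1 (SLC2A1, chromosome 1, 42925353 to 42958868 of GRCh38, minus strand) was at 17.4 TPM in Huh7 with NC-siRNA, 15.7 in Huh7 with COP1-siRNA, 46.2 in HepG2 with NC-siRNA and 51.2 in HepG2 with COP1-siRNA. It was the leading transporter of the 4 in every library, with 96.4%, 95.5%, 82.2% and 75.7% of their summed TPM. Its log2 fold changes with COP1-siRNA were −0.14 in Huh7 and 0.15 in HepG2, in opposite directions. SLC2A2 (GLUT2, the hepatocyte transporter) was at 0.248 and 0.346 TPM in Huh7 and at 2.37 and 2.39 TPM in HepG2.

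SLC2A3 encodes GLUT3, a transporter of high affinity known from neurons (chromosome 12, 7919230 to 7936187, minus strand). It was at 0.0241 TPM in Huh7 with NC-siRNA, 0.0836 with COP1-siRNA, 6.63 in HepG2 with NC-siRNA and 13.1 with COP1-siRNA. It was near 0 in both Huh7 libraries, and in HepG2 the COP1-siRNA library held 1.97 times the TPM of the control, a log2 fold change of 0.88. Its siRNA estimate over both lines was 0.48 ± 0.22 (SE, limma adjusted p = 0.494). SLC2A14, a near-identical neighbour whose reads may not be told apart from those of SLC2A3, was at 0.272, 0.384, 0.614 and 2.19 TPM. The sum of both genes was 7.25 TPM in HepG2 with NC-siRNA and 15.3 with COP1-siRNA, a log2 fold change of 0.98.

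GLUT4 (SLC2A4), the insulin-regulated transporter of muscle and fat, is named because the study measured it by qRT-PCR. It was at 0.371 TPM in Huh7 with NC-siRNA, 0.309 with COP1-siRNA, 1.01 in HepG2 with NC-siRNA and 0.929 with COP1-siRNA. It was slightly lower with COP1-siRNA in each line, by a log2 fold change of −0.07 in Huh7, where it was below the 1 TPM minimum, and −0.06 in HepG2. The siRNA estimate was −0.06 ± 0.16 (SE, limma adjusted p = 0.922). A change of this size was not detectable at about 1 TPM.

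Hexokinases trap glucose as glucose 6-phosphate. HK2 (chromosome 2, 74834126 to 74893359, plus strand) was at 75.5 TPM in Huh7 with NC-siRNA, 60.8 with COP1-siRNA, 28.5 in HepG2 with NC-siRNA and 25.1 with COP1-siRNA. It was lower with COP1-siRNA in both lines, by less than 1.5-fold (limma estimate −0.24 ± 0.09 SE, adjusted p = 0.423). HK1 (chromosome 10, 69269991 to 69401882, plus strand) was at 0.118 and 0.138 TPM in Huh7 and at 62.6 and 64.2 TPM in HepG2. GCKR, a regulatory protein of hexose phosphorylation in liver, was at 2.52, 1.5, 0.691 and 0.946 TPM in the same order, while HK3 was listed at 0 in all 4 libraries. The log2 fold change of GCKR in Huh7 was −0.49 from TPM but −0.14 from depth-scaled coverage.

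In upper glycolysis GPI isomerises glucose 6-phosphate, phosphofructokinase (PFKL, PFKM and PFKP) commits the sugar to the pathway and aldolase cleaves it. GPI was at 207 and 205 TPM in Huh7 and at 235 and 240 TPM in HepG2, and PFKM was at 48.8 and 47.4 TPM and at 52.4 and 49.9 TPM. Both differed little among all 4 libraries. PFKL, the liver type, was at 44.3 and 48.5 TPM in Huh7 and at 95.2 and 92.3 TPM in HepG2. PFKP, the platelet type (chromosome 10, 3067475 to 3136805, plus strand), was at 0.321 and 0.464 TPM in Huh7 and at 39.7 and 33.3 TPM in HepG2. ALDOC was at 4.16 and 3.83 TPM in Huh7 and at 10.9 and 10.8 TPM in HepG2.

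ALDOA (chromosome 16, 30064279 to 30070420, plus strand) was at 1381 TPM in Huh7 with NC-siRNA, 1293 with COP1-siRNA, 1672 in HepG2 with NC-siRNA and 1282 with COP1-siRNA. Its log2 fold change of −0.38 in HepG2 was the lowest of the members there. The locus LOC112694756, which overlaps it on the same strand, went the other way in HepG2, from 61.2 to 312 TPM, and was at 22.3 and 24.9 TPM in Huh7. Summed over both loci, the HepG2 libraries held 1734 and 1594 TPM, a log2 fold change of −0.12. The sum thus differed less than ALDOA alone, and how the reads of the overlap were divided is not given in the sources used here.

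PFKFB enzymes make or remove fructose 2,6-bisphosphate, the strongest activator of phosphofructokinase. PFKFB3, the main form by TPM, was at 37.2 TPM in Huh7 with NC-siRNA, 46.5 with COP1-siRNA, 20.2 in HepG2 with NC-siRNA and 19.1 with COP1-siRNA. Its log2 fold change of 0.31 in Huh7 was the highest of the members there, while that in HepG2 was −0.08. PFKFB1 stayed between 0.0734 and 1.06 TPM and PFKFB4 between 2.53 and 3.98 TPM.

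Lower glycolysis yields ATP and pyruvate. GAPDH was at 6841 TPM in Huh7 with NC-siRNA, 6161 with COP1-siRNA, 4147 in HepG2 with NC-siRNA and 4373 with COP1-siRNA. Between the siRNAs its log2 fold changes were −0.15 in Huh7 and 0.08 in HepG2 (limma estimate −0.04 ± 0.08 SE, adjusted p = 0.901), and between the lines it was lower in HepG2 (limma adjusted p = 0.000728), so it differed less between the siRNAs than between the lines. ENO1, an enolase, was at 3010, 2423, 2943 and 2864 TPM, and TPI1, which interconverts the triose phosphates, at 1166, 912, 1076 and 1226 TPM. ENO1 had a log2 fold change of −0.31 in Huh7 and of −0.04 in HepG2, and TPI1 one of −0.35 and one of 0.19. The HepG2 value of TPI1 became −0.09 from depth-scaled coverage.

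PKM, the pyruvate kinase of most tumour cells, was at 2025, 1882, 1363 and 1261 TPM in Huh7 with NC-siRNA and COP1-siRNA and in HepG2 with NC-siRNA and COP1-siRNA. Its log2 fold change with COP1-siRNA was −0.11 in each line. The liver form PKLR was listed at 0 in Huh7 with NC-siRNA and was at 0.0576 TPM with COP1-siRNA, 1.995 in HepG2 with NC-siRNA and 2.86 with COP1-siRNA. PGK1, PGAM1 and ENO2 had log2 fold changes between −0.10 and 0.26 in the 2 lines. The M1 and M2 isoforms of PKM are not separated in gene tables, and GAPDH, PGAM1, ENO1, TPI1, PKM and LDHA have processed pseudogenes or near copies that can share their reads.

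Lactate dehydrogenase is a tetramer of the subunits encoded by LDHA and LDHB. LDHA (chromosome 11, 18394389 to 18408425, plus strand) was at 1129 TPM in Huh7 with NC-siRNA, 971 with COP1-siRNA, 1258 in HepG2 with NC-siRNA and 1143 with COP1-siRNA. It was lower with COP1-siRNA in both lines (log2 fold change −0.22 in Huh7 and −0.14 in HepG2; limma estimate −0.18 ± 0.07 SE, adjusted p = 0.440). LDHB (chromosome 12, 21635342 to 21657971, minus strand) was at 3.87 and 5.01 TPM in Huh7 and at 1968 and 1743 TPM in HepG2. It made up 0.342% and 0.513% of the summed TPM of both subunits in Huh7 and 61% and 60.4% in HepG2.

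Gluconeogenesis needs pyruvate carboxylase (PC), PEP carboxykinase (PCK1 in the cytosol, PCK2 in mitochondria), fructose bisphosphatase (FBP1) and glucose 6-phosphatase with its transporter SLC37A4. PC (chromosome 11, 66848420 to 66958418, minus strand) was at 209 TPM in Huh7 with NC-siRNA, 149 with COP1-siRNA, 13.4 in HepG2 with NC-siRNA and 12.6 with COP1-siRNA. Its log2 fold change in Huh7 was −0.48, and that in HepG2, at a level far lower, was −0.08 (limma estimate −0.28 ± 0.12 SE, adjusted p = 0.468). PCK2 (chromosome 14, 24094311 to 24104125, plus strand) was at 32.2 TPM in Huh7 with NC-siRNA, 37.8 with COP1-siRNA, 32.6 in HepG2 with NC-siRNA and 46.9 with COP1-siRNA. It was higher with COP1-siRNA in both lines, at 0.22 in Huh7 and 0.51 in HepG2, and had the smallest adjusted p of the members without passing (limma estimate 0.37 ± 0.10 SE, adjusted p = 0.300).

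The hepatic forms of this branch were near 0 in all 4 libraries. PCK1 reached at most 0.156 TPM and FBP1 at most 0.497 TPM, and G6PC1, the liver glucose 6-phosphatase, at most 0.0888 TPM. The ubiquitous G6PC3 was at 45 and 49.7 TPM in Huh7 and at 81.5 and 68.9 TPM in HepG2, and SLC37A4 at 17.0 and 15.8 TPM and at 41.9 and 36.5 TPM. Neither G6PC3 nor SLC37A4 passed 1.5-fold with COP1-siRNA.

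Glycogen is made from UDP-glucose and broken down by phosphorylase. PYGL, the liver phosphorylase (chromosome 14, 50905217 to 50944483, minus strand), was at 106 TPM in Huh7 with NC-siRNA, 98.4 with COP1-siRNA, 227 in HepG2 with NC-siRNA and 182 with COP1-siRNA. It was lower with COP1-siRNA in both lines (log2 fold change −0.11 in Huh7 and −0.31 in HepG2; limma adjusted p = 0.464). The branching enzyme GBE1 was likewise lower in both, at −0.15 and −0.18 (limma adjusted p = 0.582), and UGP2, which makes UDP-glucose, was at 0.11 and −0.09. PPP1R3C, a glycogen-targeting subunit of protein phosphatase 1, was at 3.99, 3.89, 0.869 and 1.33 TPM. GYS2, the liver glycogen synthase, stayed at or below 0.633 TPM, while GYS1 was at 33.7 to 42.3 TPM.

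TKT and PGD belong to the pentose phosphate pathway, TKT to its non-oxidative and PGD to its oxidative branch. TKT (chromosome 3, 53224707 to 53256114, minus strand) was at 99.2 TPM in Huh7 with NC-siRNA, 106 with COP1-siRNA, 373 in HepG2 with NC-siRNA and 403 with COP1-siRNA. PGD was at 612, 618, 270 and 293 TPM in the same order. Both had slightly more TPM with COP1-siRNA in each line, with log2 fold changes between 0.02 and 0.11. KHK, the ketohexokinase that starts fructose breakdown, was at 8.03, 5.11, 23.7 and 20.7 TPM, and its −0.56 was the lowest value of the members in Huh7, beside −0.19 in HepG2 (limma adjusted p = 0.394). TXNIP, an inhibitor of glucose uptake induced by glucose, was at 8.04, 8.65, 7.72 and 8.84 TPM and differed little among the libraries.

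Other genes of the pathway were taken from a list of 81. With COP1-siRNA, 2 of the 53 tested in Huh7 passed 2-fold, both lower, and 0 of the 62 tested in HepG2 did, beside the 1.08% and 0.934% of all genes given above. TALDO1, the transaldolase that works beside TKT in the non-oxidative pentose phosphate branch, was at 546 TPM in Huh7 with NC-siRNA, 264 with COP1-siRNA, 283 in HepG2 with NC-siRNA and 180 with COP1-siRNA. It was lower with COP1-siRNA in both lines (log2 fold change −1.04 in Huh7 and −0.65 in HepG2; limma estimate −0.85 ± 0.11 SE, adjusted p = 0.140). MINPP1, an inositol polyphosphate phosphatase that also cleaves 2,3-bisphosphoglycerate, was at 44.9, 13.8, 38.6 and 22 TPM. Its log2 fold changes were −1.64 in Huh7 and −0.79 in HepG2 (limma adjusted p = 0.184). From depth-scaled coverage they were −1.17 and −0.58. Of the 63 genes of this list fitted over all libraries, 0 were called by limma for the siRNA and 9 had an unadjusted p under 0.05. TKT, the member that works beside TALDO1, had a log2 fold change of 0.09 in Huh7 and of 0.11 in HepG2.

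**Figure D3:**
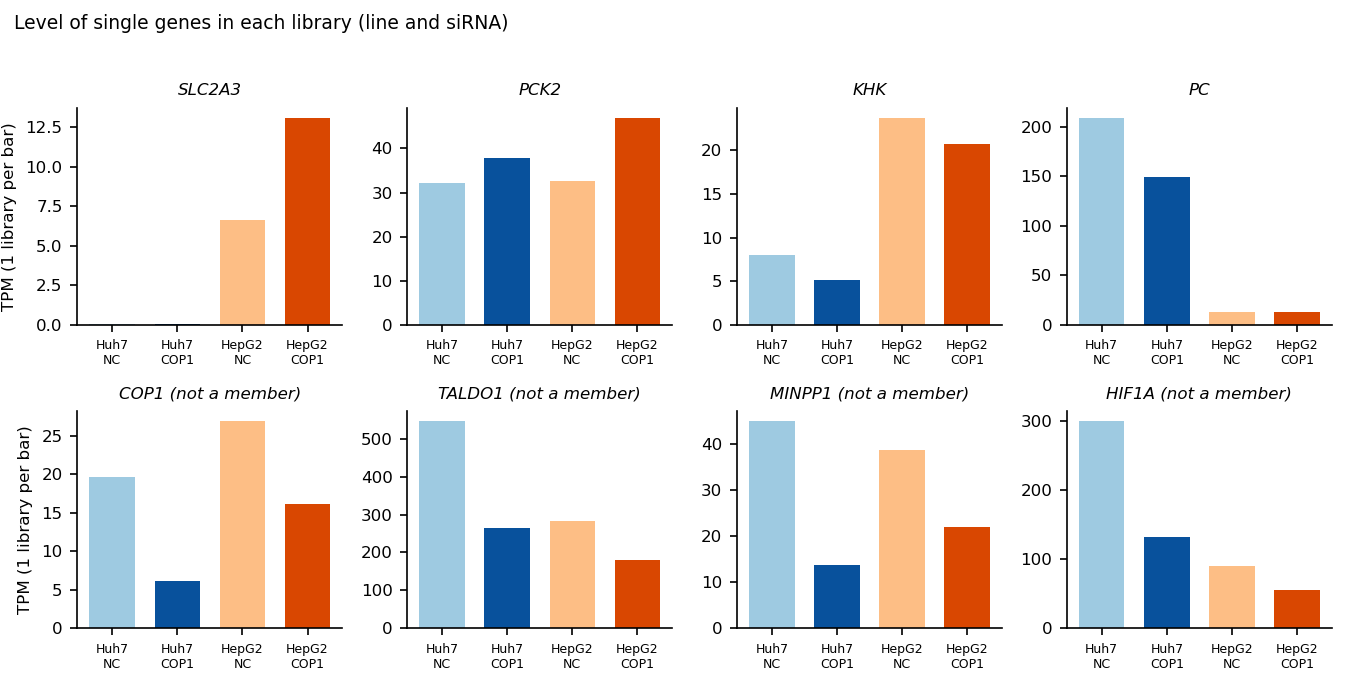
TPM in each of the 4 libraries (1 bar per library; pale, NC-siRNA; dark, COP1-siRNA) for 4 members in the upper row and for COP1, TALDO1, MINPP1 and HIF1A in the lower row. COP1, TALDO1, MINPP1 and HIF1A are lower with COP1-siRNA in both lines, PCK2 is higher in both, SLC2A3 is near 0 in Huh7, and PC and KHK differ more between the lines than between the siRNAs.

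HIF1A encodes the oxygen-regulated factor that activates many glycolytic genes through sites with the core ACGTG. Its transcript was at 300 TPM in Huh7 with NC-siRNA, 132 with COP1-siRNA, 90.5 in HepG2 with NC-siRNA and 55.1 with COP1-siRNA. The log2 fold changes were −1.18 and −0.70 (limma adjusted p = 0.140). HIF1A was picked after its value was seen, from a list of 10 regulators. It was the only 1 of 9 tested in Huh7 past 2-fold, beside 1.08% of all genes. In HepG2 0 of 10 passed, beside 0.934% of all genes. RefSeq promoter windows on GRCh38.p14, from 250 bases before to 50 after a start, were at hand for 36 of the 41 members. The core ACGTG, searched on both strands, was in 15 of the 36 (41.7%) and in 21.4% of all 35116 windows. The core holds a CG, and the windows were not matched for CG content or level. Members had 1 window each, and differences in share were not tested. The E-box CACGTG, which contains the core, was in 6 of the 36 (16.7%) and in 7.26% of all windows. A pair of E-boxes 5 bases apart was in 0 of the 36 and in 2 of all 35116 windows (0.0057%). At so low a share the 0 does not set the members apart.

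The windows of LDHA (chr11:18394313-18394612, plus strand), PGK1 (chrX:78103998-78104297, plus strand) and LDHB (chr12:21657793-21658092, minus strand) are shown. LDHA and LDHB were picked because they encode alternative subunits of 1 enzyme, and no rule set the choice of PGK1. They do not stand for the list. LDHA has the most matches of the 36 member windows, while 15 of the 36 hold the core and those of ENO1, PKM and TPI1, among others, do not. Capitals mark the core on either strand, so an E-box appears as CACGTG. The window of LDHA holds 5 matches over both strands, in 2 E-boxes and a further core, that of PGK1 holds 3 and that of LDHB holds 0.
LDHA: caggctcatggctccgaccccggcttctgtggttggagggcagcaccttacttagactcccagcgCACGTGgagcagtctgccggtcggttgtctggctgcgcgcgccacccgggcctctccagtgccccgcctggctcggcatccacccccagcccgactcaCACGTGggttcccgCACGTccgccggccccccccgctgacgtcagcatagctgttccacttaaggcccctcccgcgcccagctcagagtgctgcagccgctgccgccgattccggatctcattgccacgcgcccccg
PGK1: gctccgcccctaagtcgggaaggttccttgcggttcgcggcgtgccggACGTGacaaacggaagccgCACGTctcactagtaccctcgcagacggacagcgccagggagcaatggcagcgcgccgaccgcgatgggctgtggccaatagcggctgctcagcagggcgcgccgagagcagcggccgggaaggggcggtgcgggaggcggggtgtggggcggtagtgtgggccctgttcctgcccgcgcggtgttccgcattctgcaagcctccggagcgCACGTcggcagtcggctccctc
LDHB: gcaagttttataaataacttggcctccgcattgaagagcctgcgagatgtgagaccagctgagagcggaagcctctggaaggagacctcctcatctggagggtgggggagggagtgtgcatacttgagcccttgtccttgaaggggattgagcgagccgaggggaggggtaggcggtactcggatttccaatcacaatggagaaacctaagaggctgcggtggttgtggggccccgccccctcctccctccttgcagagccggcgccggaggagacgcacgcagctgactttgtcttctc

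In Huh7 the median log2 fold change was −0.06 for the 14 tested members with the core and −0.07 for the 16 without it. In HepG2 it was −0.08 for 15 members and −0.04 for 19. The difference between members with and without the core was not tested. PGK1 itself, with 82.1 and 90.0 TPM in Huh7 and 222 and 207 TPM in HepG2, was higher in the one line and lower in the other. A match is a stretch of letters in a window and not a bound site.

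The 7 bases AGCAGTC were also searched for, in the 3′ UTRs of GENCODE 29 with 1 transcript per gene, because earlier results of these data had placed them in lowered genes outside the pathway. They were in 2 of the 41 members (4.88%), SLC2A2 and PCK1, and in 8.94% of the 10320 genes with a 3′ UTR that were tested in both lines. Of 80 other pathway genes 10 held them (12.5%), TALDO1 among them. The members and other pathway genes were counted whether tested or not, so their shares are not on the same basis as the 8.94%. Neither SLC2A2 nor PCK1 was tested in Huh7. The 3′ UTRs of TALDO1 and HIF1A each held 1 match, and MINPP1 had none in its transcript. TALDO1, HIF1A and MINPP1 were looked at because they were lower with COP1-siRNA in these same libraries, so their matches are no independent result. The matches are shown in capitals within windows of 29 bases, at chr11:764987-765015 for TALDO1 and chr14:61747127-61747155 for HIF1A, both on the plus strand.
TALDO1: taatacattaaAGCAGTCacttttcctgt
HIF1A: tcattacctaaAGCAGTCtatttatattt

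The larger differences of the members lay between the lines. With NC-siRNA, 19 of the 37 members tested passed 2-fold between HepG2 and Huh7, 14 higher and 5 lower in HepG2, where 42.6% of all 15055 genes did. Over both siRNAs, 32 of 38 members had a limma adjusted p under 0.05 for the line, 23 higher and 9 lower in HepG2, where 78.5% of all genes did. The median log2 difference of the members was 0.39 and that of all genes 0.37. Median-of-ratios scaling, which assumes that most genes do not differ, moved HepG2 against Huh7 by 0.26, to a median of 0.14 for members and for all genes. Under it 10 members were more than 2-fold higher and 7 lower, the limma calls of GPI, LDHA, ENO2 and PFKFB4 were lost, and GPI, PFKM, LDHA and PCK2 changed sign. Each line is represented by 2 libraries that differ in siRNA, so the p-values rest on the spread between those.

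On the TPM + 1 scale the 5 members highest in HepG2 against Huh7 with NC-siRNA were LDHB, HK1, PFKP, SLC2A3 and TKT, whose values in each library are given above. LDHB had a log2 difference of 8.66, the largest difference towards HepG2 among the 15055 genes tested on this scale, and 508 times the TPM of Huh7 (limma estimate 8.42 ± 0.12 SE, adjusted p = 1.23e-06). HK1 had 531 times the TPM and a log2 difference of 5.83 (limma adjusted p = 1.92e-06). From depth-scaled coverage the log2 difference of HK1 was 3.05. Its coverage before scaling was small, at 0.0353 in Huh7 and 15.5 in HepG2 with NC-siRNA, so the added 1 weighs more there. PFKP had 124 times the TPM and a log2 difference of 4.95 (limma adjusted p = 4.3e-06). These 3 genes were under 6 TPM in both Huh7 libraries and over 30 TPM in both HepG2 libraries. SLC2A3 had a log2 difference of 2.90 (limma adjusted p = 4.57e-05) and TKT one of 1.90 (limma adjusted p = 7.23e-06). With a pseudocount of 0.1 SLC2A3 was at 5.76, and PKLR at 4.39 and SLC2A2 at 2.83 ranked above TKT at 1.91.

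The 5 members lowest in HepG2 were PC, PPP1R3C, HK2, PGD and GCKR. PC had a log2 difference of −3.86 (limma adjusted p = 4.79e-06), PPP1R3C −1.42 (adjusted p = 0.000649), HK2 −1.38 (adjusted p = 5.04e-05) and PGD −1.18 (adjusted p = 3.91e-05, all limma). GCKR had −1.06, which was −0.64 from depth-scaled coverage and then under 2-fold (limma adjusted p = 0.0212). The direction of each of these 10 genes was the same under median-of-ratios scaling.

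**Figure D4:**
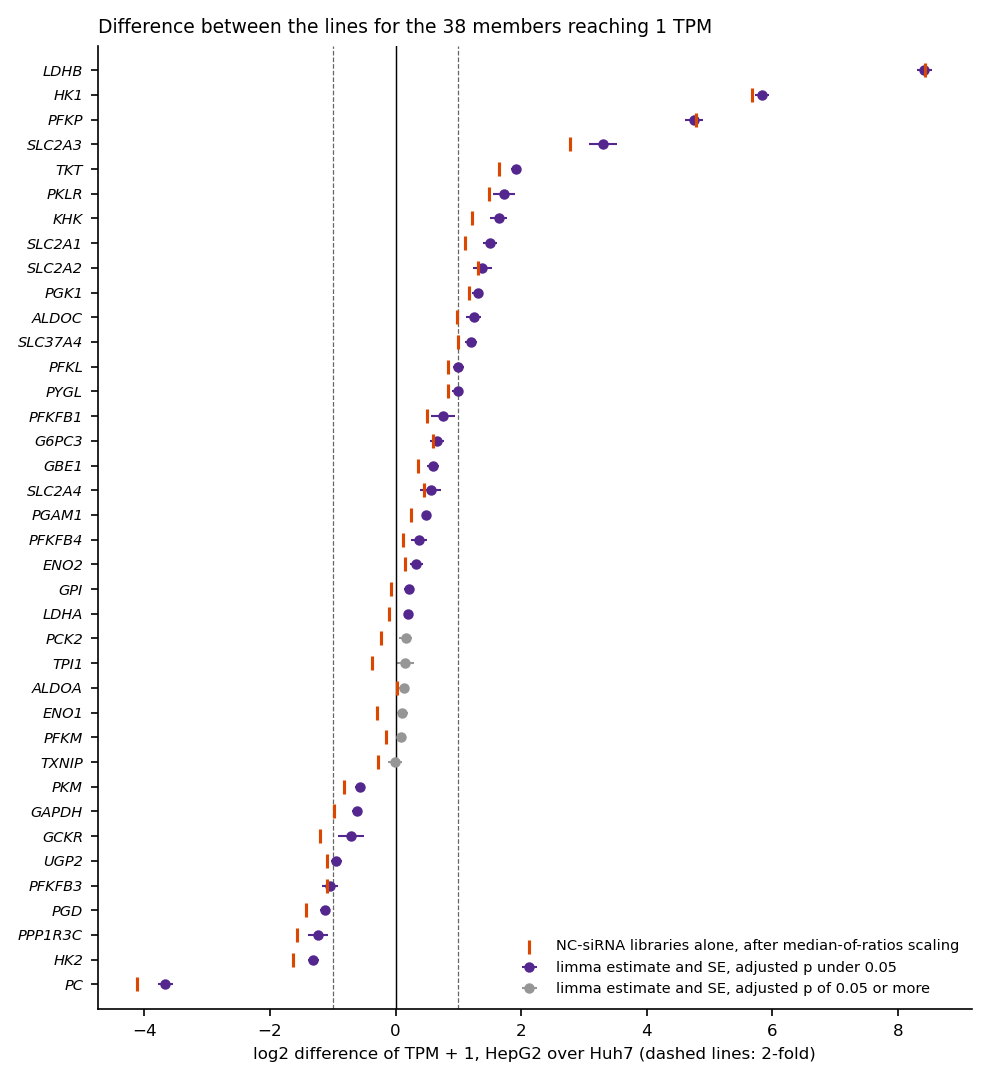
Log2 difference of TPM + 1 between HepG2 and Huh7 for the 38 members that reached 1 TPM, ordered by size: dots with bars are the limma estimate over both siRNAs with its SE (purple, adjusted p under 0.05; grey, not), orange ticks are the NC-siRNA libraries alone after median-of-ratios scaling. LDHB, HK1 and PFKP stand apart at the top and PC at the bottom. The ticks of GPI, LDHA, PFKM, PCK2, TPI1 and ENO1 lie left of 0 although their dots lie right of it.

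Of the other members past 2-fold, 9 were higher in HepG2. SLC2A2 had a log2 difference of 1.44 (limma adjusted p = 0.000393), SLC2A1 1.36 (6.02e-05), KHK 1.45 (9.04e-05), PGK1 1.42 (4.83e-05) and SLC37A4 1.25 (8.31e-05), each with its limma adjusted p. ALDOC had 1.20, PYGL 1.09 and PFKL 1.09, and these 3 and SLC37A4 were under 2-fold with median-of-ratios scaling. PKLR, listed at 0 in Huh7 with NC-siRNA, counts as the ninth. SLC2A4 had a log2 difference of 0.55 (limma adjusted p = 0.0214).

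The leading paralogue of the hexokinases, of the lactate dehydrogenases and of the glycogen phosphorylases was not the same in both lines. Among hexokinases HK2 held 97.3% and 94.6% of the family's TPM in Huh7, while HK1 held 65.0% and 65.4% and HK2 29.5% and 25.6% in HepG2. PFKP held 0.344% and 0.482% of phosphofructokinase TPM in Huh7 and 21.2% and 19.0% in HepG2, with PFKL at 47.4% to 52.6% in all 4 libraries. PFKM held more than PFKL in Huh7 with NC-siRNA, at 52.3%, and less in the other 3 libraries, at 49.2% in Huh7 with COP1-siRNA, beside 50.3% for PFKL. Among glycogen phosphorylases PYGL held 46.7% and 46.6% in Huh7 and 84.3% and 77.5% in HepG2, the rest being nearly all PYGB. Other families kept 1 form throughout, as ALDOA held at least 99.1%, ENO1 at least 98.9%, PKM at least 99.8% and GYS1 at least 98.3% in every library. Within a line the shares moved little with COP1-siRNA, and the widest moves were in HepG2, of SLC2A3 from 11.8% to 19.4%, of PYGL from 84.3% to 77.5%, of PYGB from 15.7% to 22.3% and of SLC2A1 from 82.2% to 75.7%.

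**Figure D5:**
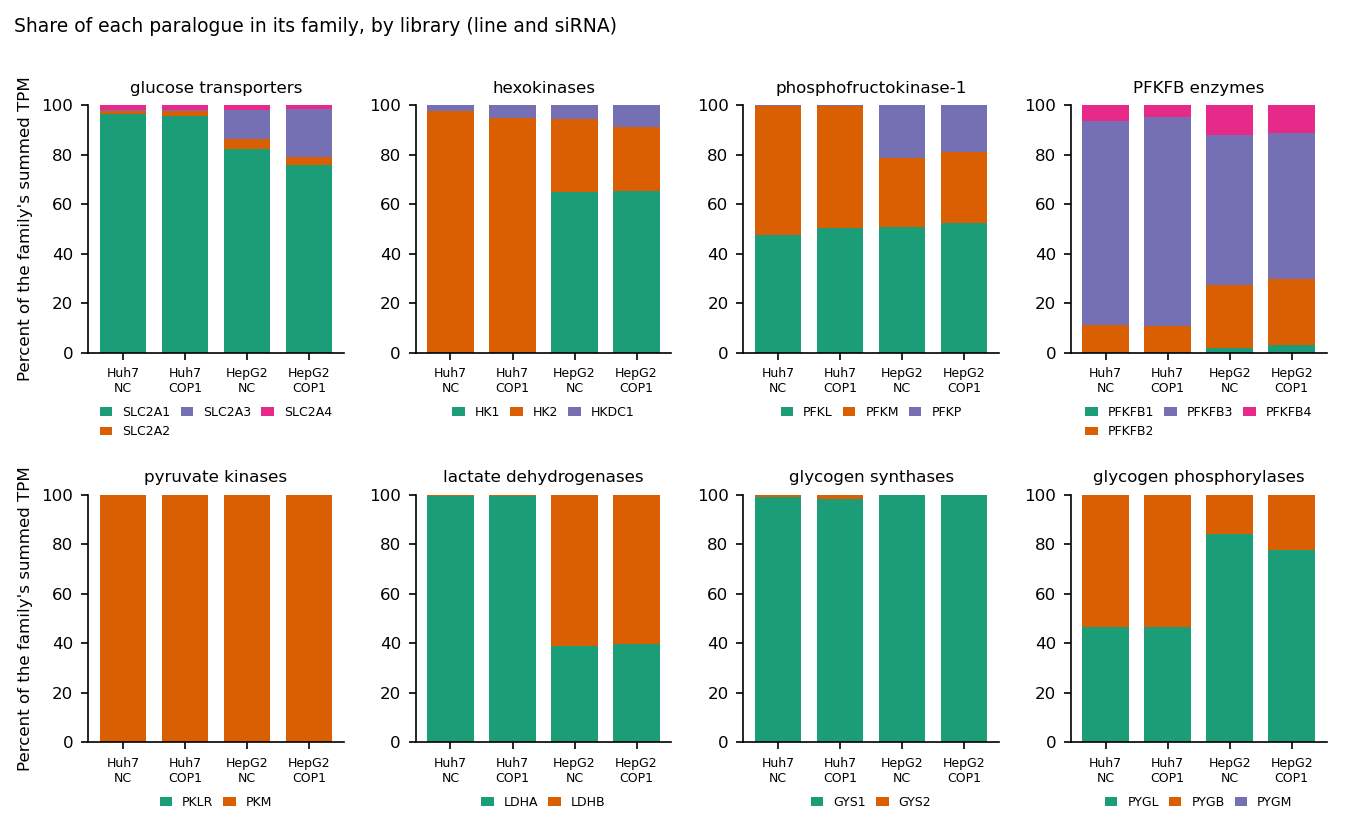
Percent of each family's summed TPM held by each paralogue, as stacked bars from 0 to 100, 1 bar per library (line and siRNA). The hexokinase bars go from almost all HK2 in Huh7 to about 65% HK1 in HepG2 and the lactate dehydrogenase bars from almost all LDHA to about 60% LDHB, while pyruvate kinase and glycogen synthase are filled by PKM and GYS1 in all 4 libraries.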

How the data were processed

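Per the submitters' processing notes, reads were processed with FastQC 0.11.7, Trimmomatic 0.38, HISAT2 2.1.0 and StringTie 2.1.3b on GRCh38; the annotation is not given in the sources used here. The deposited tables, 1 per library, hold coverage (a signal of mean reads per base), FPKM and TPM. TPM values deposited by the authors were analysed, coverage served as an alternative, and FPKM deposited by the authors gave relative depth only. The gene name column holds placeholders, so members were matched by NCBI gene number through RefSeq, in which 44698 of 46427 numbers (96.3%) were found. Rows of 1 gene number were summed. No read counts were at hand, so depth and counting error are unknown, and overlapping genes on 1 strand (9 members) are uncertain.

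A pseudocount of 1, a minimum of 1 TPM and the 2-fold threshold of the study were used within a line, with no test. limma 3.58.1 (R 4.3.3; trend, Benjamini-Hochberg over 15486 genes, 4.84 prior degrees of freedom) fitted line and siRNA over the 4 libraries, with a threshold of 0.05. Nothing states that the libraries come from separate experiments, so p-values measure the spread between these libraries only. The members and lists were chosen with earlier results of these data known. Fold changes are named for members past 2-fold in a comparison, past 1.5-fold in both lines or called by limma for the siRNA, for the 5 highest and 5 lowest members between the lines, for SLC2A4, GAPDH and COP1, and for up to 8 other pathway genes past 2-fold; all other genes and values of single members were chosen after they were seen. The fold and limma computations were tested on simulated data. Alternatives were a pseudocount of 0.1, median-of-ratios scaling, depth-scaled coverage, other TPM minima, 1.5-fold, limma without trend and an adjusted p of 0.1. Python 3.11.15, numpy 2.4.6, pandas 2.3.3 and matplotlib 3.10.9 were used. Other cell lines and assays of the study were not analysed here, and some genes of the lists are not reported here.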

Additional observations from a re-analysis of the deposited data

How the results depend on the processing

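With 1 library per condition, no library could be left out, since a line or an siRNA would then leave no residual degrees of freedom. The line was a term of the limma fit, so the siRNAs were compared as pairs within the lines. The labels give no replicate numbers for any further pairing. The count of members past 2-fold with COP1-siRNA was 0 in both lines under a pseudocount of 0.1, median-of-ratios scaling, depth-scaled coverage, a minimum TPM of 5 and none, and by the plain TPM ratio, which was chosen after the values were seen; at 1.5-fold it was 0 in Huh7 and 1 in HepG2. The median log2 fold change of the members was −0.10 to −0.02 for Huh7 and −0.07 to −0.02 for HepG2. Between the lines the median was 0.14 with median-of-ratios scaling and 0.33 to 0.41 otherwise, and 15 to 24 members were past the fold used. limma called 0 members for the siRNA in every fit, with 10 genes called overall at a minimum TPM of 5 and 6 at an adjusted p of 0.1, and it called 25 to 32 members for the line. Of 207 values of single named genes under another pseudocount, scaling or column, 53 moved by 0.1 or more and 0 of those past 2-fold changed sign. The limits of these data are the single library per condition and genes under about 1 TPM, where the added 1 sets the fold change. With 1 library per condition no spread within a line was measured. Changes past 2-fold are thus unresolved, as are smaller ones.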

Other observations

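Among genes outside the list, chosen after their values were seen, HKDC1, a hexokinase-like gene, was at 1.96 and 3.36 TPM in Huh7 and at 5.28 and 8.84 TPM in HepG2, higher with COP1-siRNA in each line by 0.56 and 0.65 on the log2 scale (limma adjusted p = 0.206). GYG2, a glycogenin that primes glycogen, was at 30.05 and 21.9 TPM in Huh7 and at 11.5 and 7.87 TPM in HepG2, lower with COP1-siRNA in both, with log2 fold changes of −0.44 and −0.49 (limma adjusted p = 0.206). PPP1R3F, a glycogen-targeting phosphatase subunit, was at 4.61 and 2.25 TPM and at 3.91 and 2.15 TPM, with −0.79 and −0.64 (limma adjusted p = 0.191); from depth-scaled coverage its values were −0.53 and −0.26. On the log2(TPM + 1) scale none of the 3 passed 2-fold, and none passed the limma threshold. The plain TPM ratio of PPP1R3F in Huh7 was 0.488.

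Genes of the hypoxia response outside the pathway, from a list of 15, had a median log2 fold change of 0.03 over 13 tested in Huh7 and of −0.04 over 12 tested in HepG2. In either line 0 passed 1.5-fold, beside 5.48% of all genes in Huh7 and 4.43% in HepG2. Among so few genes a count of 0 does not set them apart. A link to the lower HIF1A transcript was not tested. VEGFA was at 27.4 and 23.6 TPM in Huh7 and at 17.4 and 17.2 TPM in HepG2, and ADM at 38.4 and 34.5 TPM and at 18.8 and 15.1 TPM. MLXIPL, which encodes ChREBP, was at 1.12 and 1.14 TPM in Huh7 and at 5.79 and 6.38 TPM in HepG2. Its target ARRDC4, an arrestin related to TXNIP, was at 0.0778 and 0.0157 TPM in Huh7 and at 13.1 and 9 TPM in HepG2, while TXNIP was at similar levels in both lines.

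Further pathway genes outside the list differed widely between the lines. PHKA1, a phosphorylase kinase subunit, was listed at 0 in both Huh7 libraries and was at 17.0 and 14.7 TPM in HepG2, and PDK2, a kinase that inhibits pyruvate dehydrogenase, was listed at 0 in both Huh7 libraries and was at 16.4 and 19.6 TPM in HepG2. STBD1, a glycogen-binding protein, was at 73.5 and 78.2 TPM in Huh7 and at 6.25 and 8.11 TPM in HepG2. GYS2 and LDHB lie next to each other on chromosome 12, from 21531527 to 21604858 and from 21635342 to 21657971, and GYS2 was under 1 TPM in all 4 libraries while LDHB was high in HepG2.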
